A study of Mus musculus with 6 samples.

Results

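The genes described here are 10 members of the fibroblast growth factor (FGF) system: the ligand genes Fgf1, Fgf2, Fgf7, Fgf9, Fgf10 and Fgf18 and the receptor genes Fgfr1, Fgfr2, Fgfr3 and Fgfr4. They were chosen by name as receptors and ligands of branching morphogenesis, and each has 1 row among the 58116 rows of the deposited table of read counts. All 10 passed the expression filter and were among the 17006 genes tested. The table covers poly(A) RNA of salivary gland primordia from wild-type mouse embryos at embryonic day 13.5, given 300 ng/ml of BMP-2 (3 libraries) or 0 ng/ml (3 control libraries). BMP-2 belongs to the bone morphogenetic proteins, which are secreted signals. Neither the treatment time, the mouse strain nor the use of separate cultures or litters is in the labels, so p-values here cover only the variation among these 6 libraries, some of which may be technical. The name of 1 count column matched no sample description, and its group was inferred from its first letter, which it shares with the BMP-2 samples and with no control. This library is called unnumbered, and no count column was matched to BMP-2 replicate 3. Below, values with BMP-2 are given for replicate 1, replicate 2 and the unnumbered library, in that order, and values in controls for replicates 1, 2 and 3.

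FGF ligands are secreted proteins that bind receptor tyrosine kinases together with heparan sulfate chains on the cell surface, and the active receptors signal mainly through the RAS and ERK pathway. In the embryonic salivary gland, Fgf10 and Fgf7 are made in the mesenchyme and act on the epithelium, which carries a splice form of Fgfr2 that binds them, and mice without Fgf10 or without this receptor form fail to build the glands. Fgfr1 is found in both tissues. Outside the gland, Fgfr3 is known for its role in growth plate cartilage and Fgfr4 for its expression in developing skeletal muscle. Counts per gene do not separate the splice forms.

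Total counts ranged from 23331703 to 32473558 in the BMP-2 libraries and from 19724383 to 26269855 in the control libraries. The 10 genes together took 14468 to 20626 counts in a BMP-2 library and 10497 to 14618 in a control library. The labelled tissue was checked against markers of both gland compartments. CPM is the count scaled to a common library size, corrected by the TMM factor. Summed over 9 epithelial markers, such as Epcam and Cdh1, the level was 3671 to 5363 CPM with BMP-2 and 4350 to 5003 CPM in controls. Of these epithelial markers 8 had negative changes, 1 had a positive one (Krt14) and 0 were called, with a median log2 fold change of -0.115. Over 9 mesenchymal markers, such as Pdgfra and Col1a1, the summed level was 5874 to 9234 CPM with BMP-2 and 7107 to 8334 CPM in controls. Of these mesenchymal markers 6 had positive changes, 3 had negative ones and 0 were called. Vim, Twist1 and Prrx1 were higher in every BMP-2 library than in any control library (log2 fold changes 0.37, 0.79 and 0.46). All 12 analysed skeletal muscle markers and 8 of 9 tested cartilage markers had positive log2 changes with BMP-2, as did all 5 tested bone markers and all 6 leukocyte markers, and their levels are given beside Fgfr3 and Fgfr4.

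With BMP-2, Fgfr3 rose 2.41-fold, while none of the 6 ligand genes passed the test. Fgfr4 and Fgfr2 were higher in every BMP-2 library than in any control library but missed the threshold. Thus 1 of the 10 genes was called, upward (quasi-likelihood test of edgeR, with a p below 0.05 after Benjamini-Hochberg adjustment over all genes tested), against 0.911% of all 17006 genes, of which 0.811% were called higher and 0.1% lower. The BMP-2 and control values did not overlap for 4 of the 10, the 4 receptors, and all 4 were higher with BMP-2. Among all genes tested 15.5% did not overlap, 8.76% being higher and 6.73% lower with BMP-2. The median log2 fold change of the 10 was 0.07, and that of all genes tested was -0.01.

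**Figure D1:**
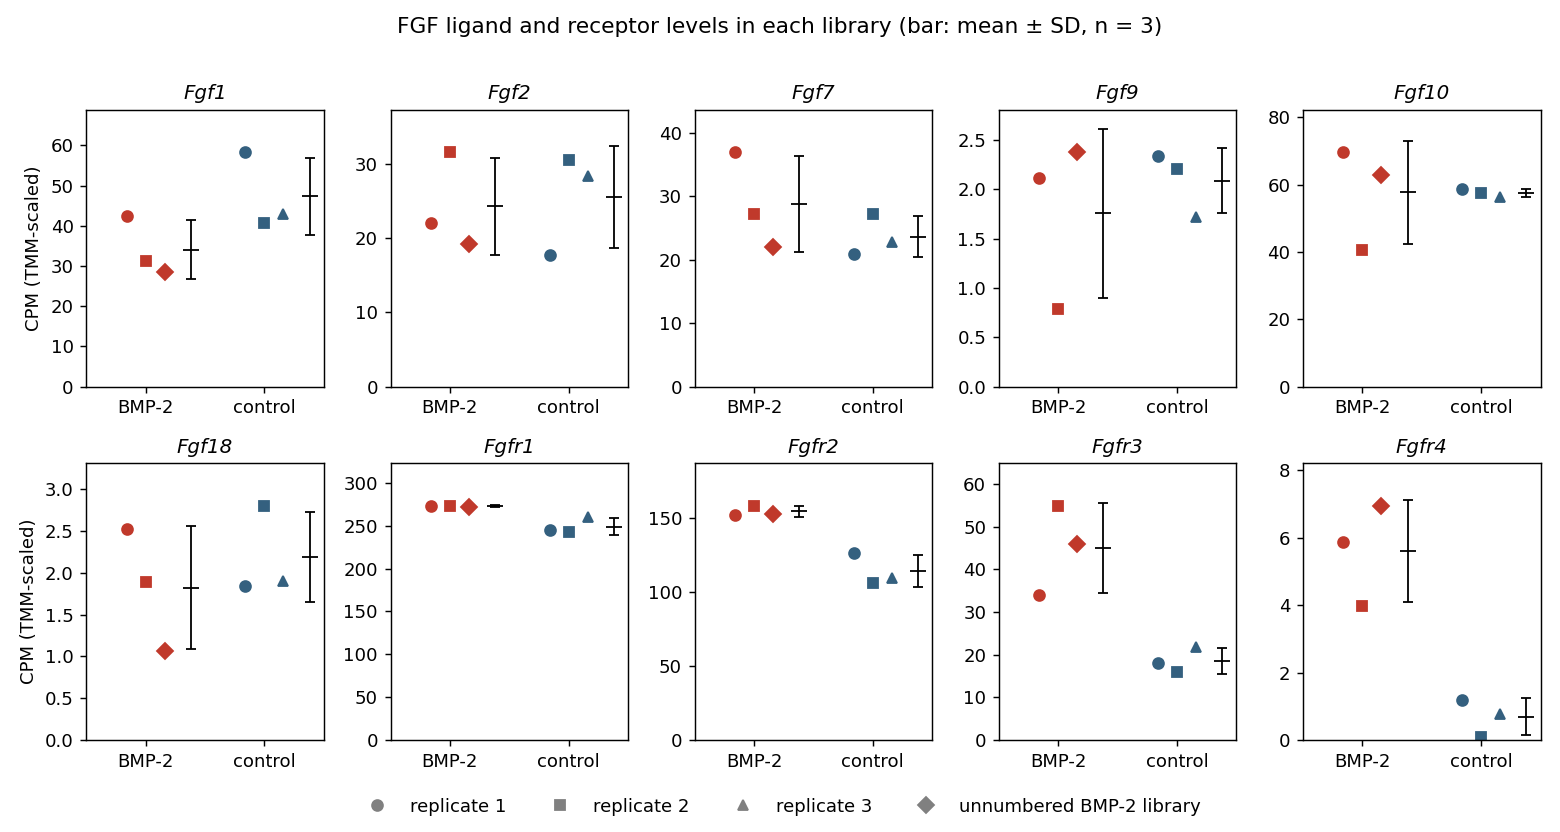
CPM of each of the 10 genes in each library, BMP-2 left of control in every panel, with the mean and SD (n = 3) beside the points; each vertical axis starts at 0 and has its own scale. The 4 receptors, in the lower row, do not overlap between groups, and Fgfr3 lies between 34.0 and 54.9 CPM with BMP-2 and between 15.9 and 21.8 CPM in controls.

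Fgfr3 encodes a receptor that binds several ligands, among them the products of Fgf1, Fgf9 and Fgf18. Its level was 34.0, 54.9 and 45.9 CPM with BMP-2, against 18.1, 15.9 and 21.8 CPM in controls. The groups did not overlap, and BMP-2 replicate 1 was the lowest of the treated libraries. The means were 45.0 ± 10.5 CPM with BMP-2 and 18.6 ± 3.02 CPM in controls (SD, n = 3 each), a log2 fold change of 1.27 (SE 0.196, 95% interval 0.82 to 1.72, edgeR adjusted p = 0.0348). The direction and size held in every fit, with a log2 fold change between 1.10 and 1.44 in each alternative run. The call did not. Leaving out BMP-2 replicate 2, the unnumbered library, control replicate 1 or control replicate 2 gave adjusted p-values of 0.0529, 0.114, 0.133 and 0.135 in edgeR, and limma-voom gave 0.0548. Over all 16 alternatives the adjusted p ran from 6.53e-07 to 0.135, and 10 kept the call.

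Cartilage markers were higher in the same libraries. Summed over 12 markers, their level was 225, 303 and 282 CPM with BMP-2, and 130, 130 and 115 CPM in controls. Within the BMP-2 group the order of the libraries by this sum was that of Fgfr3, and within the controls it was not: control replicate 3 had the most Fgfr3 and the lowest marker sum. Col2a1, which encodes the chief collagen of cartilage, was at 26.4 CPM with BMP-2 and 1.19 CPM in controls, and Acan, the gene of its large proteoglycan, at 8.48 CPM with BMP-2 and 0.208 CPM in controls. Of the 12 markers 9 were tested, 8 with positive changes, and 3 were called, Col2a1, Acan and Col9a2. Col11a2, Hapln1 and Col9a1 were also higher in every BMP-2 library than in any control, and Sox5 was lower in every one, but none of these was called. Matn1 had 0 counts in every library and Snorc in every control library. Col9a1 and Col9a2 made up most of the sum in every library. Of single markers, Acan and Col9a2 had the order of Fgfr3 within the BMP-2 group. Col2a1, at 20.3, 42.1 and 16.8 CPM, and Col9a1, at 59.2, 80.1 and 89.4 CPM, did not. The order of the BMP-2 libraries seen for Fgfr3 was not particular to cartilage markers. It recurred in the sums of bone, leukocyte, neuron and Schwann cell markers. The sums of FGF co-receptor and binding protein genes and of signal relay genes had it too. Of 5 neuron markers 4 had negative changes. Their sum was 52.0, 123 and 86.5 CPM with BMP-2, against 114, 146 and 155 CPM in controls. The sum of 7 bone markers was 130, 482 and 396 CPM with BMP-2, against 73.3, 308 and 287 CPM in controls, and that of 6 leukocyte markers was 166, 342 and 224 CPM with BMP-2, against 110, 156 and 223 CPM in controls. Both sums overlapped between the groups. Spp1 made up most of the bone sum, at 88.4, 410 and 250 CPM with BMP-2, against 37.5, 268 and 257 CPM in controls. It was not called (edgeR adjusted p = 0.972). No other bone marker put the BMP-2 libraries in the order of Fgfr3. Sp7, a transcription factor gene of bone-forming cells, was the 1 bone marker called (log2 fold change 8.65, edgeR adjusted p = 0.0288). It was at 2.27, 6.75 and 15.4 CPM with BMP-2 and had 0, 1 and 0 counts in controls. Alpl was at 7.43, 22.7 and 39.1 CPM with BMP-2, against 2.14, 1.45 and 0.898 CPM in controls. Neither Alpl (log2 fold change 3.96, edgeR adjusted p = 0.0647) nor Dmp1 (0.89, edgeR adjusted p = 0.465) overlapped between groups, but neither was called. Ibsp was not tested. It had 1, 3 and 1194 counts with BMP-2, nearly all in the unnumbered library, and 0 counts in every control library. Of the leukocyte markers 0 were called. The part of cartilage, bone, leukocyte, neuron and Schwann cell transcripts in the Fgfr3 result was not tested. In RNA from whole glands, more cells of a type and more RNA per cell cannot be told apart.

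Fgfr4, the receptor gene with the lowest count, had 189, 97 and 164 counts with BMP-2, against 24, 2 and 21 in controls. This corresponds to 5.88, 3.99 and 6.96 CPM with BMP-2 and to 1.19, 0.10 and 0.785 CPM in controls. Every BMP-2 library was above every control, and the controls differed widely among themselves. The 2 counts in control replicate 2 allow 0.0121 to 0.362 CPM (exact 95% Poisson interval, counting error only). The log2 fold change was 2.999 (SE 0.609, 95% interval 1.60 to 4.40), with an adjusted p of 0.0749 in edgeR, so Fgfr4 was not called. DESeq2 called it, with an adjusted p of 1.58e-05, as did edgeR without an expression filter, with 0.0497, and the adjusted p ran up to 0.311 over 16 alternatives.

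Skeletal muscle markers separated the libraries in a like way. The sum of 12 markers was 810, 192 and 832 CPM with BMP-2, against 10.003, 5.81 and 99.0 CPM in controls. The treated library with the least muscle transcripts, BMP-2 replicate 2, also had the least Fgfr4, and control replicate 2 was the lowest of all libraries in both. Control replicates 1 and 3 stood in the opposite order, with 1.19 and 0.785 CPM of Fgfr4 in replicates 1 and 3. Pax7, a gene of muscle progenitors, was the 1 called marker (log2 fold change 5.15, edgeR adjusted p = 0.0288), and Pax7, Myf5, Myog, Actc1 and Ckm had 0 counts in control replicate 1. Acta1 was not analysed here. Fgf6, a ligand gene known from the muscle lineage, was too low to be tested, with 20, 3 and 39 counts with BMP-2 and 0, 0 and 5 in controls. The part of muscle transcripts in the Fgfr4 difference was not tested.

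**Figure D2:**
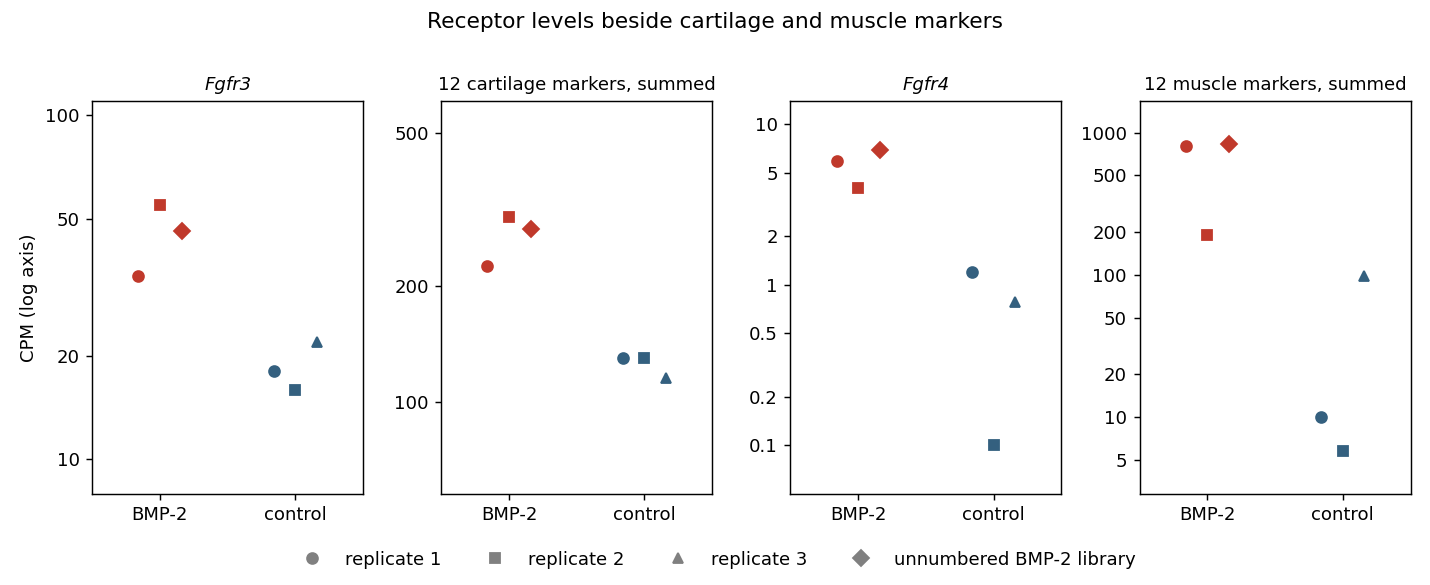
CPM of Fgfr3, of 12 summed cartilage markers, of Fgfr4 and of 12 summed skeletal muscle markers in each library, BMP-2 left of control, on log axes that differ between panels. BMP-2 replicate 1 is the lowest treated library for Fgfr3 and the cartilage sum, and BMP-2 replicate 2 the lowest for Fgfr4 and the muscle sum, at 3.99 and 192 CPM.

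Fgfr2, which in its epithelial form receives Fgf10 and Fgf7, was at 152, 159 and 153 CPM with BMP-2, against 127, 107 and 110 CPM in controls. Its treated values lay within a narrow band, all above the highest control. The log2 fold change was 0.44 (SE 0.0989, 95% interval 0.21 to 0.66), an increase of 1.35-fold that was not called (adjusted p = 0.0970, edgeR), although DESeq2 called it with an adjusted p of 0.00351 and edgeR without an expression filter with 0.0360. Over 16 alternatives its adjusted p ran up to 0.433. The deposited row of Fgfr2 spans 2.96 megabases, with a gene length of 11045 bases, and the span overlaps those of 69 other rows. Overlap within the counted bases was not examined, so whether its reads are shared with other genes is not known. Esrp1 and Esrp2, which encode the splicing factors that make the epithelial form, had log2 fold changes of -0.09 and -0.06 (edgeR adjusted p = 0.927 and 0.979).

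Fgfr1 was the most abundant of the receptors. It stood at 273, 273 and 272 CPM with BMP-2, against 245, 242 and 260 CPM in controls. The groups did not overlap, yet the difference was small, with a log2 fold change of 0.13 (SE 0.0914, 95% interval -0.08 to 0.34, adjusted p = 0.794, edgeR).

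**Figure D3:**
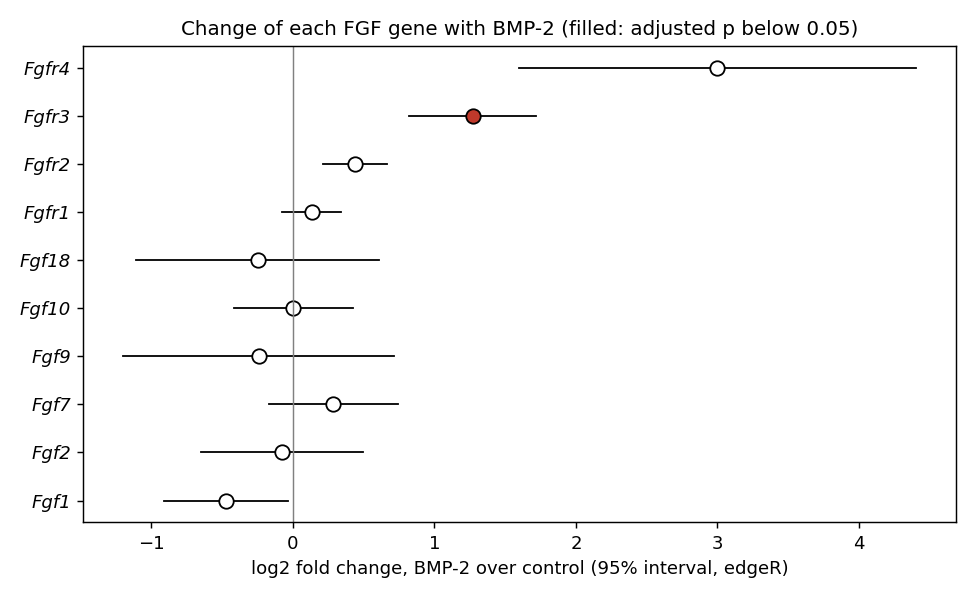
Log2 fold change of each gene, BMP-2 over control, with its 95% interval from the edgeR fit; filled points passed an adjusted p of 0.05. The receptors run from 0.13 for Fgfr1 to 2.999 for Fgfr4, and the ligands from -0.47 for Fgf1 to 0.29 for Fgf7.

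The promoters of the receptor genes that differed most are shown because SMAD proteins, the mediators of BMP signals, are known to bind the GC-rich element GGCGCC and the box CAGAC. Each is the RefSeq window of 300 bases on build GRCm38.p6, from 250 bases before the annotated start of transcription to 50 after it, read on the gene's strand, with GGCGCC in capitals. Fgfr3 has 2 start sites in the table, and Fgfr4 and Fgfr2 have 1 each. Windows of 8 of the 10 genes were examined, and no window of Fgf1 or Fgfr1 was among them.
Fgfr3, start site 1, chr5:33721474-33721773, plus strand: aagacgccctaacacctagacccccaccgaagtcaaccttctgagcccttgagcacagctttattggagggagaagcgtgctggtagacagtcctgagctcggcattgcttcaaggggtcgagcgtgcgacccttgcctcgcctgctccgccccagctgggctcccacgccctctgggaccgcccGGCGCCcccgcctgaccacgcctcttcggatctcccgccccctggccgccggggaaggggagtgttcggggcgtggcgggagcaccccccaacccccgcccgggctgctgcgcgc
Fgfr3, start site 2, chr5:33722056-33722355, plus strand: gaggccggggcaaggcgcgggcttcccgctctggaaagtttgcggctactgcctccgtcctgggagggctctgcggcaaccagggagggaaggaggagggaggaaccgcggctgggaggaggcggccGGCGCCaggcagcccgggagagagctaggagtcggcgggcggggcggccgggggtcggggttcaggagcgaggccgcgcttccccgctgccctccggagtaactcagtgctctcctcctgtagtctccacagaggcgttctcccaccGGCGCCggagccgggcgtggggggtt
Fgfr4, chr13:55152568-55152867, plus strand: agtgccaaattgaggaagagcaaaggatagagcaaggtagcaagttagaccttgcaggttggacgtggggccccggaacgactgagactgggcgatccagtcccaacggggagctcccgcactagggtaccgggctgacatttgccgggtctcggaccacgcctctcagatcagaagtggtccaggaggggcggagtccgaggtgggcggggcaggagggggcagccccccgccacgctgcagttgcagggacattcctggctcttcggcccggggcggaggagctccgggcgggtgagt
Fgfr2, chr7:130266759-130267058, minus strand: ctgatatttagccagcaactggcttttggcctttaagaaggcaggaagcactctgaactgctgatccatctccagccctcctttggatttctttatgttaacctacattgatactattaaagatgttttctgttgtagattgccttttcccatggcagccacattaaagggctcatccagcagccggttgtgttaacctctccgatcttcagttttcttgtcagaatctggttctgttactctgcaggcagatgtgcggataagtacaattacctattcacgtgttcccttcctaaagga
Both Fgfr3 windows held GGCGCC, a palindrome that reads alike on both strands. It begins at position -65 in the window of start site 1 and at positions -123 and 25 in that of start site 2, counting the start site as 1. The Fgfr4 and Fgfr2 windows held no GGCGCC, and none of these 4 windows held CAGAC on either strand, so the motifs did not overlap. Among the 9 windows of the 8 genes, 3 held GGCGCC (the other being that of Fgf2) and 4 held CAGAC or its complement GTCTG. In all 32851 windows of the table the shares were 11.9% and 49.6%. These shares were not matched for GC content, and the 2 Fgfr3 windows belong to 1 gene, so no enrichment can be read from the counts. GC content was 69.7% and 73.0% in the Fgfr3 windows, 65.3% in that of Fgfr4 and 43.7% in that of Fgfr2. These matches describe letters and do not show binding.

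Set against the other receptors within each library, which removes any effect of scaling, the Fgfr3 count was 0.224, 0.346 and 0.300 of the Fgfr2 count with BMP-2, against 0.143, 0.149 and 0.199 in controls. Every treated ratio was higher than every control ratio. The mean log2 ratio differed by 0.82 (BMP-2 minus control), and that of Fgfr3 to Fgfr1 by 1.13. Both gave an exact two-sided permutation p of 0.1, the smallest that 3 libraries against 3 allow (0.15 adjusted over 3 ratios), so neither can reach 0.05 in this design.

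Levels of different genes were compared per length, as CPM per kilobase of the gene length in the deposited table. The 4 receptors summed to 46.8 ± 1.44 CPM per kilobase with BMP-2 and to 36.3 ± 1.61 in controls (SD, n = 3 each). The difference of 10.5 CPM per kilobase was made up of 3.64 from Fgfr2, 3.46 from Fgfr3, 2.25 from Fgfr1 and 1.17 from Fgfr4. Fgfr1 therefore held 54.7 ± 1.73% of the summed receptor level with BMP-2 and 64.3 ± 2.13% in controls. The share of Fgfr2 was 29.9 ± 0.508% with BMP-2 and 28.5 ± 2.2% in controls, that of Fgfr3 12.6 ± 2.56% with BMP-2 and 6.71 ± 0.853% in controls, and that of Fgfr4 2.86 ± 0.800% with BMP-2 and 0.446 ± 0.353% in controls. Shares of Fgfr1, Fgfr3 and Fgfr4 did not overlap between groups, and those of Fgfr2 did. The 6 ligands summed to 29.1 ± 5.21 CPM per kilobase with BMP-2 and to 30.7 ± 1.04 in controls. Fgf10 held the largest mean share of that sum in both groups, 35.8 ± 7.65% with BMP-2 and 33.9 ± 0.956% in controls.

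**Figure D4:**
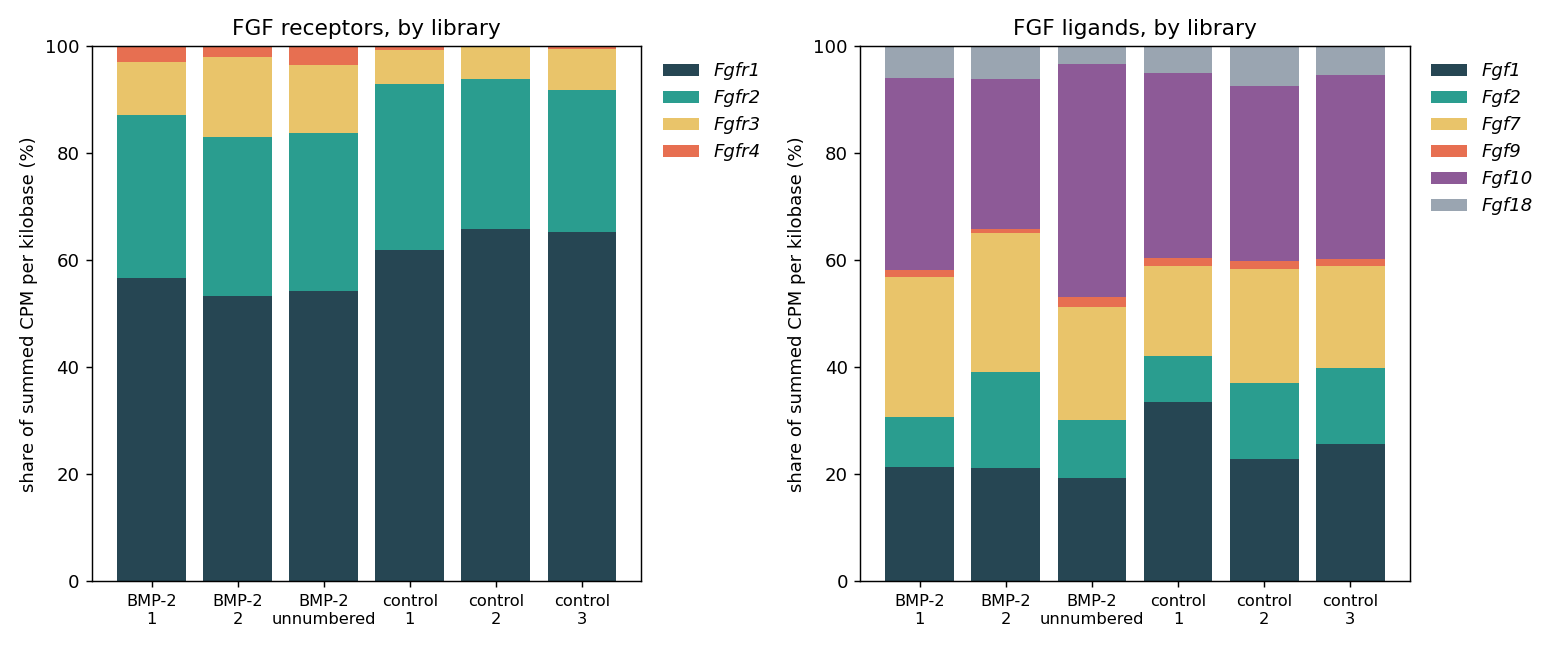
Stacked shares, in percent, of the summed CPM per kilobase of the 4 receptors (left) and of the 6 ligands (right) in each library, BMP-2 libraries left of controls. Fgfr1 takes 53.2 to 56.6% of the receptor bar with BMP-2 and 61.9 to 65.9% in controls, and among the ligands the Fgf1 share alone does not overlap, at 19.4 to 21.4% with BMP-2 and 22.8 to 33.6% in controls.

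No ligand gene passed the test. Fgf10, the ligand on which gland formation depends, was at 69.7, 40.6 and 62.8 CPM with BMP-2, against 58.8, 57.6 and 56.4 CPM in controls. The treated libraries lay on both sides of a tight control group. The means were 57.7 ± 15.2 CPM with BMP-2 and 57.6 ± 1.19 CPM in controls (SD, n = 3 each), and the interval of the log2 change runs from -0.42 to 0.42 (adjusted p = 0.999, edgeR). Fgf7, its relative that binds the same receptor form, was at 37.0, 27.3 and 22.1 CPM with BMP-2, against 20.9, 27.2 and 22.8 CPM in controls. The groups overlapped, and the log2 fold change of 0.29 had an interval from -0.17 to 0.74 (adjusted p = 0.797, edgeR). Without BMP-2 replicate 1, the highest of the 6 libraries, the change was 0.062, and without the unnumbered library 0.45. Within a library Fgf10 had 1.88, 1.49 and 2.85 counts for each count of Fgf7 with BMP-2, against 2.82, 2.12 and 2.47 in controls, and the mean log2 ratio differed by -0.30 (exact two-sided permutation p = 0.5, also 0.5 adjusted over 3 ratios). That difference was -0.084 with BMP-2 replicate 2 left out, -0.20 when control replicate 1 was omitted and -0.55 without the unnumbered library, where the exact permutation p was 0.1, the smallest that 2 libraries against 3 allow.

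Fgf1, a ligand that binds every FGF receptor, had a negative change that was not called. Its level was 42.4, 31.2 and 28.6 CPM with BMP-2, against 58.3, 40.8 and 42.9 CPM in controls. Only BMP-2 replicate 1 reached into the range of the controls. The log2 fold change was -0.47 (SE 0.190, 95% interval -0.91 to -0.04, adjusted p = 0.427, edgeR), and it was -0.30 without control replicate 1, the highest control. At an unadjusted p below 0.05, 4 of the 10 genes passed, Fgfr2, Fgfr3 and Fgfr4 upward and Fgf1 downward, against 10.1% of all genes tested.

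Fgf2, a ligand without a classical secretion signal, was at 22.0, 31.5 and 19.1 CPM with BMP-2, against 17.7, 30.4 and 28.4 CPM in controls. Both groups covered almost the same range, and the log2 change of -0.08 had an interval from -0.65 to 0.50 (adjusted p = 0.984, edgeR). Fgf9, known as a signal to the mesenchyme of the lung, and Fgf18, known from skeletal growth, had the lowest counts of the ligands. Fgf9 was at 2.11, 0.781 and 2.38 CPM with BMP-2 and at 2.34, 2.2 and 1.72 CPM in controls, and its lowest value rests on 19 counts. Fgf18 was at 2.52, 1.89 and 1.06 CPM with BMP-2, against 1.84, 2.80 and 1.91 CPM in controls. Neither separated the groups, and their intervals of -1.20 to 0.72 and -1.11 to 0.61 on the log2 scale leave changes of either sign possible (adjusted p = 0.963 and 0.956, edgeR).

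Per length, Fgfr1 had the highest level of the 10 genes in both groups, 25.6 ± 0.0745 CPM per kilobase with BMP-2 and 23.3 ± 0.909 in controls (SD, n = 3 each). With BMP-2 it was followed by Fgfr2, Fgf10, Fgf7, Fgf1, Fgfr3, Fgf2, Fgf18, Fgfr4 and Fgf9. In controls the order was Fgfr1, Fgf10, Fgfr2, Fgf1, Fgf7, Fgf2, Fgfr3, Fgf18, Fgf9 and Fgfr4. With BMP-2 the ranges of neighbours overlapped from Fgf10 through Fgf2 and between Fgf18 and Fgfr4, and in controls between Fgf10, Fgfr2 and Fgf1 and between Fgf2, Fgfr3 and Fgf18. Fgfr2 was above Fgf10 in all 3 BMP-2 libraries, at 13.8 to 14.4 against 7.32 to 12.6 CPM per kilobase, and in 1 of 3 control libraries. Fgfr3 averaged 5.90 CPM per kilobase with BMP-2 and 2.44 in controls, and so stood above Fgf2 with BMP-2 and below it in controls. Fgfr4 averaged 1.34 CPM per kilobase with BMP-2 and 0.165 in controls, where it was the lowest of the 10.

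The genes also differed in how they varied within a group. Fgfr1 and Fgfr2 had the smallest spread among BMP-2 libraries, with SDs of 0.0042 and 0.032 on the log2 CPM scale, against 0.056 and 0.13 in controls. Fgf10 was the steadiest ligand in controls, with an SD of 0.030, and varied more with BMP-2, with an SD of 0.41. BMP-2 replicate 2 was the lowest treated library for Fgf10, Fgf9 and Fgfr4 and the highest for Fgf2, Fgfr2 and Fgfr3. BMP-2 replicate 1 was the highest treated library for Fgf1, Fgf7, Fgf10, Fgf18 and, by a very small margin, Fgfr1. It was the lowest for Fgfr2 and Fgfr3. Fgfr2 thus had the order of Fgfr3, though its treated values differed little. The treated libraries thus had no common rank across the family.

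The 5 genes whose pattern over the 6 libraries was nearest to that of Fgfr3, by the root mean square difference of centred log2 CPM among 13844 tested genes with a mean of at least 2 CPM, were Efna3, Slc52a3, Emb, Tgm5 and Ctnnd2. They encode the ephrin A3 ligand, a riboflavin transporter, the cell adhesion protein embigin, an epidermal transglutaminase and delta catenin. Their differences from Fgfr3 ran from 0.067 for Efna3 to 0.15 for Ctnnd2 on the log2 scale, where the median gene was at 0.70. Efna3 was at 19.7, 29.8 and 26.8 CPM with BMP-2, against 10.6, 8.16 and 11.97 CPM in controls, the same order of libraries as for Fgfr3. Efna3, Emb and Tgm5 were called, and a like group difference is part of what the measure selects.

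None of the genes in the other FGF pathway lists was called, against the 0.911% of all genes. The rest of the FGF family comprised 17 genes, of which 8 were tested, with a median log2 fold change of 0.03. Fgfrl1, which encodes a receptor without a kinase domain and had the highest mean CPM, was at 53.4 CPM with BMP-2 and 44.6 CPM in controls (log2 fold change 0.26, adjusted p = 0.394, edgeR). Fgf13, which encodes an FGF homologous factor that stays inside the cell, was at 6.82 CPM with BMP-2 and 5.73 CPM in controls. Fgf21, a hormone-like ligand gene, was at 0.533 CPM with BMP-2 and 1.19 CPM in controls (adjusted p = 0.498, edgeR). Fgf3, Fgf4 and Fgf8 had at most 4 counts in any BMP-2 library and 0 in the controls, and were not tested.

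Of 16 co-receptor and binding protein genes 14 were tested, 9 with a positive change, and the median log2 fold change was 0.09. The lowest adjusted p-values belonged to the heparan sulfate core protein genes Gpc1 (log2 fold change 0.61, SE 0.152, adjusted p = 0.125) and Sdc3 (0.63, SE 0.180, adjusted p = 0.198, both edgeR). Gpc1, glypican 1, was at 120, 119 and 168 CPM with BMP-2, against 97.5, 80.2 and 88.8 CPM in controls, with no overlap. DESeq2 called both genes. By mean CPM over all 6 libraries, not scaled by length, the highest were Sdc4, at 345 CPM with BMP-2 and 369 CPM in controls, and Hspg2, the perlecan gene, at 247 CPM with BMP-2 and 278 CPM in controls, neither of them called. Kl and Klb, the klotho co-receptor genes, were too low to be tested.

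Among 16 heparan sulfate enzyme genes 15 were tested, with a median log2 fold change of 0.08. Sulf1, which encodes an enzyme that removes sulfate groups from heparan sulfate outside the cell, had the lowest adjusted p of the list. It was at 22.8, 28.0 and 14.1 CPM with BMP-2, against 4.93, 7.51 and 10.5 CPM in controls. The groups did not overlap, and the log2 fold change of 1.49 (SE 0.327) was not called by edgeR (adjusted p = 0.0934) but was by DESeq2. Its relative Sulf2, at 161 CPM with BMP-2 and 153 CPM in controls, had a log2 fold change of 0.08. Hs2st1, a sulfotransferase gene, followed Sulf1 in the list (log2 fold change 0.26, adjusted p = 0.383, edgeR), and Ndst1, with the highest mean CPM, was at 245 CPM with BMP-2 and 238 CPM in controls.

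The 18 genes that relay the receptor signal were all tested, and 14 had a positive change, with a median of 0.06 on the log2 scale. Their changes were small, from -0.11 for Nras to 0.36 for Map2k1, which encodes a kinase that activates ERK (adjusted p = 0.219, edgeR). Shc1, an adaptor gene, had a log2 fold change of 0.22 (adjusted p = 0.454, edgeR). Ptpn11, a phosphatase gene with a high level in this list, was at 194 CPM with BMP-2 and 187 CPM in controls.

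No response or feedback gene was called. Of 18 known readouts of FGF and ERK signalling 16 had a negative change with BMP-2, against 8835 of all 17006 genes tested, and Egr1 and Fos had positive ones of 0.26 and 0.55 on the log2 scale (adjusted p = 0.97 and 0.958, edgeR). The list had a median of -0.20 on the log2 scale, against -0.01 for all genes tested. At an unadjusted p below 0.05, 4 were lower and 0 higher, against 3.65% and 6.47% of all genes tested. Etv1, an ETS transcription factor gene, was at 89.1, 104 and 78.5 CPM with BMP-2, against 124, 148 and 135 CPM in controls. No treated library reached the controls, and the log2 fold change was -0.58 (SE 0.127, adjusted p = 0.0833, edgeR). Phlda1 followed with -0.45 (SE 0.122, adjusted p = 0.169, edgeR), and DESeq2 called both. The feedback inhibitor genes Spry1, Spry2 and Dusp6 had log2 fold changes of -0.23, -0.16 and -0.29 (adjusted p = 0.712, 0.785 and 0.555, edgeR). By mean CPM over all libraries the highest were Ccnd1, the cyclin D1 gene, at 517 CPM with BMP-2 and 571 CPM in controls, and Phlda1, at 167 CPM with BMP-2 and 228 CPM in controls. The 8 end bud markers all had negative changes, 5 at an unadjusted p below 0.05 and 0 called. Their summed level was 1644 to 1880 CPM with BMP-2 and 2885 to 5177 CPM in controls. Most of the control sum was Bpifa2, at 829 CPM with BMP-2 and 2290 CPM in controls. The changes were uneven on the log2 scale, with -1.59 for Lpo, -1.49 for Prol1 and -1.47 for Bpifa2. They were small for Sox9, Sox10 and Kit, at -0.05, -0.10 and -0.12, where the groups overlapped. The part of the end bud markers in the response gene values was not tested.

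**Figure D5:**
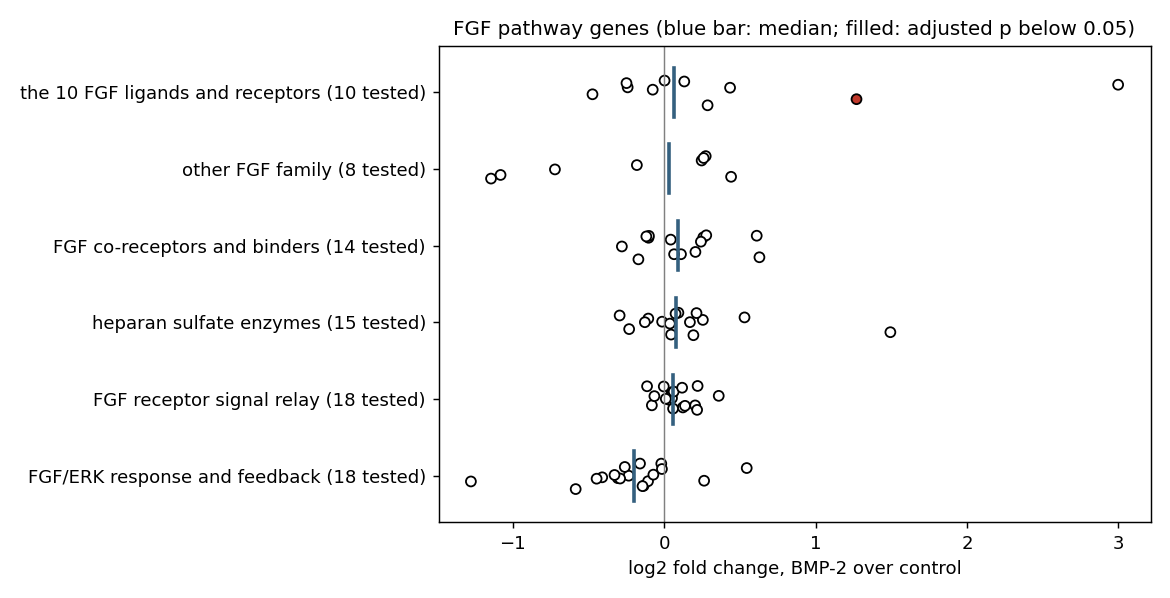
Log2 fold change, BMP-2 over control, of every tested gene in the 6 FGF pathway lists, with the list median as a blue bar; filled points passed an adjusted p of 0.05 (edgeR, over all genes). Fgfr3 is the only filled point, and the medians lie between -0.20 for the response genes and 0.09 for the co-receptors and binders.

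On the deposited coordinates (GRCm39, whole gene spans), Fgfr3 lies on chromosome 5 from 33879018 to 33894412, plus strand, and Fgfr4 on chromosome 13 from 55300453 to 55316572, plus strand. Fgfr1 lies on chromosome 8 from 26003670 to 26065734, plus strand, and Fgfr2 on chromosome 7 from 129764181 to 132725079, minus strand. Fgf10 lies on chromosome 13 from 118806327 to 118928651, Fgf7 on chromosome 2 from 125876578 to 125933105, Fgf2 on chromosome 3 from 37402495 to 37464257, and Fgf9 on chromosome 14 from 58308004 to 58350177, all on the plus strand. Fgf18 lies on chromosome 11 from 33067430 to 33097400 and Fgf1 on chromosome 18 from 38971726 to 39062525, both on the minus strand. The row named Fgfr3-ps held 0 to 3 counts a library. Fgf2 overlaps Nudt6 on the other strand, whose count was 14.0% of that of Fgf2, and Fgf10 overlaps Gm16263 on the other strand, at 9.60%. These overlaps are of whole spans, and overlap within the counted bases was not examined. If strand was not used in counting, reads from bases counted for both genes of a pair cannot be told apart. No row overlapped those of Fgfr4 and Fgf18.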

How the data were processed

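Poly(A) RNA libraries of 3 BMP-2 and 3 control samples were sequenced; per the labels' protocols the library kit was directional. The authors deposited unnormalized counts of reads for each gene, with its length. Tools named in the submitters' processing notes are featureCounts, HISAT2 2.2.0 and cutadapt 2.9, with build GRCm39. How strand and multiply matching reads were handled is not given in the sources used. Library totals ranged from 19724383 to 32473558. No 2 libraries of a group were alike within counting noise (chi-square over degrees of freedom 13.7 to 41.5).

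Groups came from the sample titles, and 5 of 6 columns matched 1 sample description; the remaining column was used as a BMP-2 library without a number. Groups were compared in edgeR 4.0.16 under R 4.3.3 by the quasi-likelihood test, with TMM scaling, a robust fit and its default expression filter. P-values were adjusted by Benjamini-Hochberg across the 17006 genes kept, with a threshold of 0.05 and 4 residual degrees of freedom. SE is the log2 fold change divided by the root of its F statistic. CPM is the count scaled by library size and TMM factor; log2 CPM used a prior count of 2. Within-library ratios were compared by exact permutation, which cannot give a p under 0.1 here. On simulated data with the means and dispersions of these libraries, edgeR tested 16752 genes. It recovered 61 of 97 genes with a 2-fold change (62.9%) and 83 of 98 with a 4-fold change (84.7%), all in the right direction. Another 29 calls were false, a share of all calls above the threshold of 0.05.

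Alternatives were the scaling, the filter, DESeq2 1.42.0, limma-voom (limma 3.58.1), edgeR without the robust option, leaving out each library, and a block for replicate number. Members, gene lists, alternative settings and the naming rule were chosen with earlier results of these data known. That rule takes all 10 members; from each other pathway list every called gene, the 2 with the lowest adjusted p and the 2 with the highest mean; the 5 genes nearest to Fgfr3; and markers as needed. For 1 gene that the rule takes, the values are not reported here. Fgf6, Fgf3, Fgf4, Fgf8, Kl, Klb, Nras, Egr1, Fos, Spry1, Spry2, Dusp6, Esrp1 and Esrp2 were named after their values were seen. The markers Acta1 and Tubb3 were not analysed here. Promoter windows are those of RefSeq on GRCm38.p6, matched by symbol, and none was used with the deposited coordinates.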

Additional observations from a re-analysis of the deposited data

How the results depend on the processing

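Fgfr3, Fgfr4 and Fgfr2 kept a positive log2 fold change in all 16 alternatives, and Fgfr3 lay between 1.10 and 1.44 when libraries were left out. Fgfr1 and Fgf7 also stayed positive and Fgf1 negative in all 16, though none of them was called in any. The number of the 10 FGF genes called, 1 in the reported test, was 3 with no expression filter and 3 in DESeq2 (Fgfr2, Fgfr3 and Fgfr4), 0 in limma-voom, where Fgfr3 was at 1.23, and 0 to 1 with a library left out. Over all genes, the count of calls was 155 as reported, 552 with no filter, 672 in DESeq2, 78 in limma-voom and 20 to 151 with a library left out. Among the other lists, no filter gave 2 calls among co-receptors and binders and 1 among response genes, and DESeq2 gave 2 among co-receptors, 1 among heparan sulfate enzymes and 2 among response genes.

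The labels number 3 samples in each group, but no count column matched BMP-2 replicate 3, so only replicates 1 and 2 could be blocked. Deviations of same-numbered libraries correlated (Pearson r 0.405 across 17006 genes, which are not independent), and 2 pairs are too few to tell whether the numbers pair the samples. With the replicate number as a block over those 4 libraries, 540 genes were called, among them 2 of the 10 (Fgfr3, and Fgfr4 with an adjusted p of 0.0408), 1 co-receptor gene and 1 heparan sulfate enzyme gene. The same 4 libraries without the block, an alternative chosen after seeing the data, gave 42 genes, 0 of the 10 (Fgfr3 at 1.40, adjusted p = 0.0912 in edgeR) and 1 heparan sulfate enzyme gene.

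Ligands near 0 changed sign. Fgf10 was at -0.00082 with upper quartile scaling, -0.029 in limma-voom, -0.12 with the block, -0.069 in the same libraries without it and -0.16 to 0.20 with a library left out. Fgf2 was at 0.19 with the block, 0.16 in the same libraries without it and -0.31 to 0.069 with a library left out, Fgf9 at -0.51 to 0.11 and Fgf18 at -0.56 to 0.021 with a library left out. The cause of these shifts was not tested. The low counts of Fgf9, Fgf18 and Fgfr4 limit what can be said of them, and 3 libraries against 3 cannot give an exact permutation p below 0.1.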
